A study of Mus musculus with 23 samples.

Results

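The collagen genes of the mouse heart, every protein-coding gene whose symbol has the form Col, number, a, number, were followed 1 and 7 days after isoproterenol or lipopolysaccharide. The symbols picked out 44 of 55487 gene identifiers, namely 11 fibrillar collagens, 6 basement membrane collagens (collagen IV), 6 collagen VI genes and 21 others. Poly-A RNA came from whole hearts of wild-type C57BL/6J mice, an inbred strain, all female and 10 weeks old. In the ISO arm, mice received 300 mg/kg isoproterenol, a beta-adrenergic agonist, and were sampled on day 1 (3 hearts) and day 7 (4 hearts). In the LPS arm, mice received 2.5 mg/kg lipopolysaccharide, a bacterial endotoxin, and were sampled on day 1 and day 7 (4 hearts each). Each arm had its own baseline of 4 untreated hearts. The series title states a comparison of cytoprotective responses to both agents. No allele, transgene or co-treatment is named in any group.

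Collagens are secreted proteins whose chains wind into triple helices. Collagens I, III and V assemble into the fibrils of the cardiac interstitium, which fibroblasts make in large part. Collagen IV forms the sheet-like network of basement membranes around cardiomyocytes and vessels, collagen VI forms beaded filaments next to those membranes, and the remaining classes coat fibrils, join networks or sit in the cell membrane. Fibrillar collagen genes are best known in this tissue for fibrosis, the laying down of scar or interstitial matrix after injury.

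Reads assigned to genes totalled 20910371 to 30368954 per heart. Levels are given as CPM, read counts scaled to a common library size with trimmed mean of M-values factors, and 32 of the 44 collagen genes passed the count filter with which 15732 genes were tested. The 12 that did not pass had group means of at most 0.561 CPM: Col2a1, Col11a1 and Col24a1 of the fibrillar class, Col6a4 and Col6a5 of collagen VI, and Col7a1, Col9a1, Col9a2, Col9a3, Col10a1, Col17a1 and Col19a1. Of the 32, 22 had a group mean of at least 5 CPM and are described singly. Between the untreated groups of the arms, 0 of 32 members differed (edgeR adjusted p under 0.05), against 1.21% of all genes tested, 1 member at an unadjusted p under 0.05 (10.8% of all genes) and 0 by DESeq2 (2.01%). The library ISO day 7 replicate 3 stood apart in these genes: it was the highest of its group in 23 of 32 members, against 31.3% of all genes tested. Calls that change without it are given both ways.

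Many collagen genes lie in pairs, and promoters are printed for Col4a1, Col4a2, Col4a4, Col3a1 and Col6a6, which are described below. Col4a1 and Col4a2 (chr8, mm10) start head to head and overlap by 22 bases, and both rose on day 1. Col4a4 and Col4a3 (chr1) start head to head 71 bases apart, and both fell. Col3a1 and Col5a2 (chr1) end tail to tail, 24614 bases apart, and moved in different ways after isoproterenol. Col6a6 (chr9) fell most among members of at least 5 CPM. RefSeq promoter windows (GRCm38.p6, 250 bases before to 50 after the start, 5′ to 3′ on the gene's strand) were found for 35 of 44 members. Those for Col1a1, Col2a1, Col4a3, Col5a2, Col9a3, Col12a1, Col14a1, Col22a1 and Col26a1 were not used here. Capitals mark matches on either strand to 3 motifs, none of which overlaps another motif searched: the CCAAT box, spelled as in its name, the GC box, spelled GGGCGG, and the TATA box, spelled TATAAA.
Col4a1 (chr8:11312777-11313076, minus strand): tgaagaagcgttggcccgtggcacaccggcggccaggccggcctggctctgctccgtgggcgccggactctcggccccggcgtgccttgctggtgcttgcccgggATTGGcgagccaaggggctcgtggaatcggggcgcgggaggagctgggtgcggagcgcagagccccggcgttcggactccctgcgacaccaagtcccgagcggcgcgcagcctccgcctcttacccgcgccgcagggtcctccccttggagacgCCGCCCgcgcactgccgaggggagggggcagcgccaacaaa
Col4a2 (chr8:11312555-11312854, plus strand): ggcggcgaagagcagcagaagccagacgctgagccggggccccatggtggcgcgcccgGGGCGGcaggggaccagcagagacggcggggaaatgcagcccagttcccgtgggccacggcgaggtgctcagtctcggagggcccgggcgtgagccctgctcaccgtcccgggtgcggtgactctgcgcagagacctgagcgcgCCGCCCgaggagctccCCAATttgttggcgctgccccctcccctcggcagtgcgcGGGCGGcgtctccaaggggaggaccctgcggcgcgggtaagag
Col4a4 (chr1:82586800-82587099, minus strand): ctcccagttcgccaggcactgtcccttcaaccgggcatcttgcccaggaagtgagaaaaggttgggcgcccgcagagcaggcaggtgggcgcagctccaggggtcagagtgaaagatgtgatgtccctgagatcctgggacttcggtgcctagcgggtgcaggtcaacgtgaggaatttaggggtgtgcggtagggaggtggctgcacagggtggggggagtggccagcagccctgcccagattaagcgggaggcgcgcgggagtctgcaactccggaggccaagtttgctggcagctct
Col3a1 (chr1:45311288-45311587, plus strand): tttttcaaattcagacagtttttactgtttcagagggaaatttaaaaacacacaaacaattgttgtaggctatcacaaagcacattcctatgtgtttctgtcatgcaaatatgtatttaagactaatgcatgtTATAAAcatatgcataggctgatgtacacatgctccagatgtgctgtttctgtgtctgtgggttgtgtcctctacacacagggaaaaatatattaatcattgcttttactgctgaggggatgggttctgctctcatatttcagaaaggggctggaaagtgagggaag
Col6a6 (chr9:105828036-105828335, minus strand): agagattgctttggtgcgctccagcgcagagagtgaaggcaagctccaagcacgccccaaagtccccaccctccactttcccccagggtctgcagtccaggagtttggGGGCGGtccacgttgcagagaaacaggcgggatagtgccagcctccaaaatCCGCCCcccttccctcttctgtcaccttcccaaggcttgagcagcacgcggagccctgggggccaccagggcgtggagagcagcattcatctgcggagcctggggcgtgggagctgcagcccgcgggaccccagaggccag
The Col4a1 and Col4a2 windows overlap on opposite strands, and each held a CCAAT box and at least 1 GC box. The Col4a4 window held none of these motifs, the Col6a6 window held 2 GC boxes and the Col3a1 window held a TATA box. Among collagen windows, 12 of 35 held a CCAAT box, 22 of 35 a GC box and 5 of 35 a TATA box. Among all 32851 windows of this length the shares were 37.4%, 35.7% and 13.6%. Median G and C content was 60% in collagen windows and 52.7% in all windows, and the GC box shares were not matched for it. The AP-1 motif TGANTCA, also searched on both strands, was in the Col6a1 window alone of the 35 and in 7.81% of all windows. The RefSeq start used for Col6a6 lies 75 bases from the GENCODE start.

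In untreated hearts, collagen IV chains led the family. On the TPM scale, which divides by length and so allows genes to be compared, Col4a1 and Col4a2 together held 44.4% ± 0.416 (SD, n = 4) of the summed collagen TPM in the untreated hearts of the ISO arm and 45.7% ± 2.16 (SD, n = 4) in those of the LPS arm. Col1a1, Col1a2 and Col3a1, the chains of collagens I and III, held 24.9% ± 0.709 and 24.7% ± 2.17. On day 1 the balance shifted to collagen IV with either agent: Col4a1 and Col4a2 held 83.1% ± 0.788 (SD, n = 3) after isoproterenol and 85.1% ± 2.82 (SD, n = 4) after lipopolysaccharide, and the share of collagens I and III was 7.87% ± 0.683 and 7.91% ± 2.28. The range of hearts did not overlap that of the untreated hearts for any of these shares. In group means, the summed TPM of Col4a1 and Col4a2 went from 212 to 888 after isoproterenol and from 261 to 714 after lipopolysaccharide. That of Col1a1, Col1a2 and Col3a1 went from 119 to 84.0 and from 143 to 68.9. On day 7 the share of Col4a1 and Col4a2 was 41.7% ± 2.20 (SD, n = 4) after lipopolysaccharide, and after isoproterenol it ran from 26.5% in replicate 3 to 45.6%. Collagen genes together took 0.220% ± 0.0305 (SD, n = 4) of reads at ISO baseline, 0.499% ± 0.0495 (SD, n = 3) on day 1 and 0.283% ± 0.168 (SD, n = 4) on day 7, and in the LPS arm 0.257% ± 0.0443, 0.384% ± 0.0545 and 0.378% ± 0.0430 (SD, n = 4 each).

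**Figure D1:**
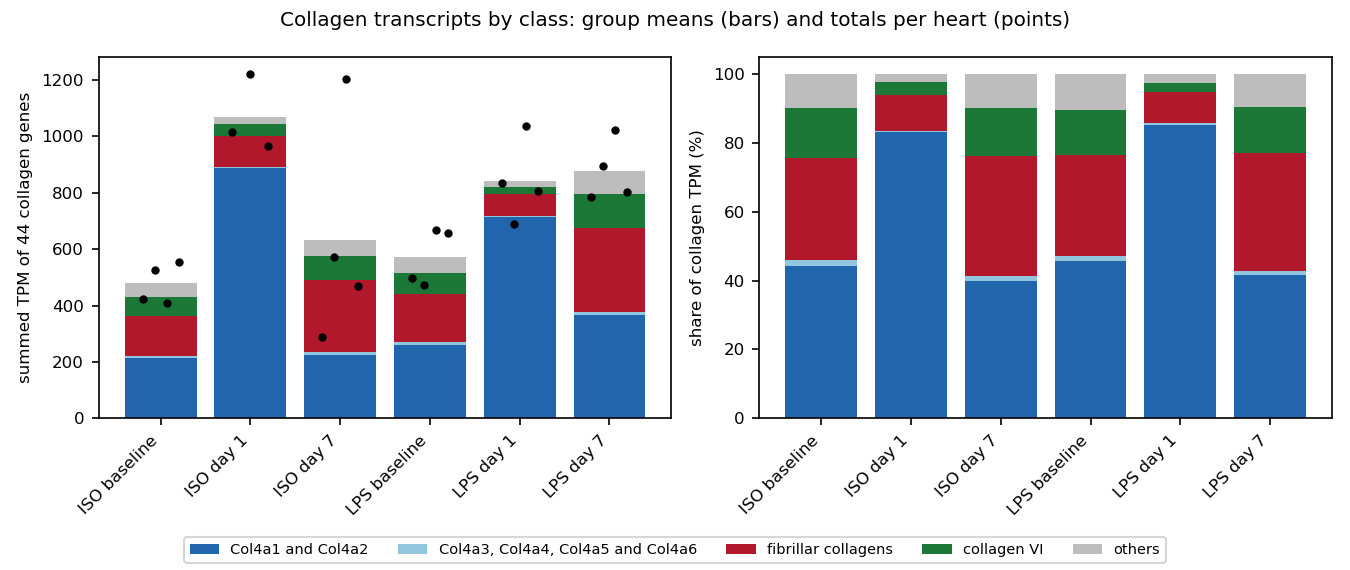
Collagen transcripts by class in the 6 groups. Left, summed TPM of the 44 collagen genes (bars, group means stacked by class; points, total of each heart); right, each class as a share of collagen TPM in percent (group means). Col4a1 and Col4a2 take 83.1% and 85.1% on day 1 against 44.4% and 45.7% at baseline, and the highest ISO day 7 point is replicate 3.

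After isoproterenol, day 1 hearts had 6 collagen genes higher and 13 lower than ISO baseline (edgeR quasi-likelihood test, Benjamini-Hochberg over all genes, adjusted p under 0.05), of 32 tested. Of all genes tested, 32.9% were higher and 32.8% lower, so a call by itself was common on that day. After lipopolysaccharide, 4 were higher and 22 lower, against 33.2% and 33% of all genes. The median log2 change of the members was -0.53 after isoproterenol and -1.31 after lipopolysaccharide, beside -0.01 and 0 over all genes tested. By class, collagen IV had 2 higher and 4 lower of 6 with either agent. The fibrillar class had 2 higher and 0 lower of 8 after isoproterenol and 0 higher and 7 lower of 8 after lipopolysaccharide. Collagen VI had 3 and 4 lower of 4, and the other classes 2 higher and 6 lower, then 2 higher and 7 lower, of 14. With ISO day 1 and ISO baseline fitted alone, the fibrillar genes Col3a1, Col1a2 and Col5a1 were also called lower (adjusted p = 4.34e-05, 0.00185 and 0.00251). That fit called 5118 of 14593 genes lower. In whole tissue, fewer cells of a type and less RNA per cell cannot be told apart.

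**Figure D2:**
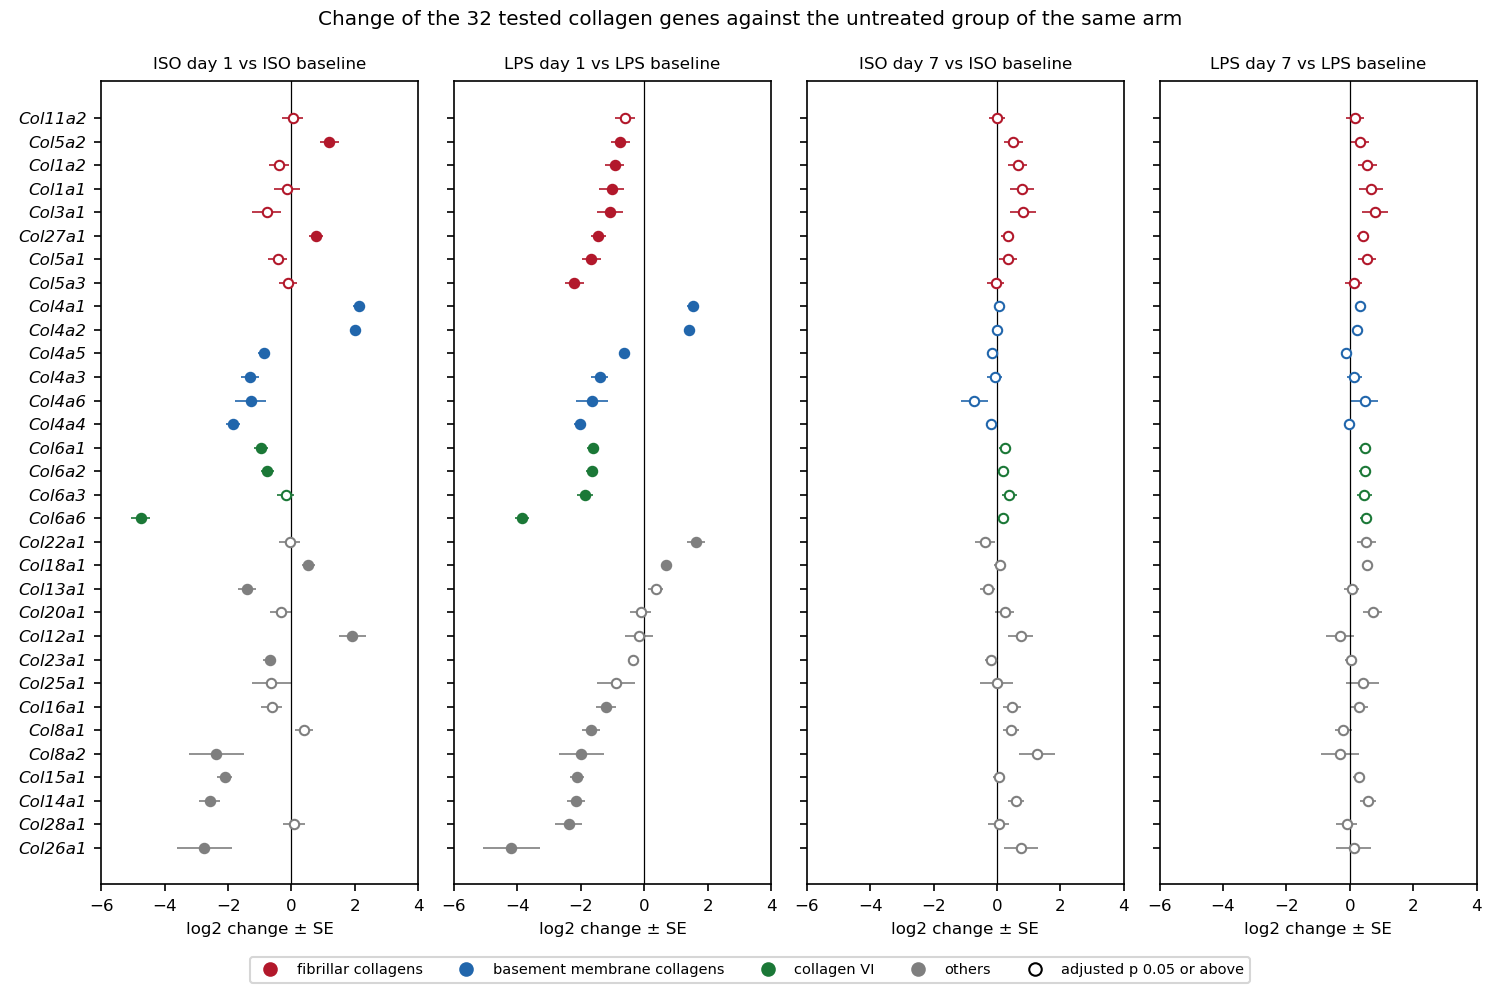
Change of the 32 tested collagen genes against the untreated group of the same arm, as log2 change ± SE on the horizontal axis, ordered by class and by the LPS day 1 change. Filled points passed adjusted p under 0.05 and open points did not; on day 7 all points are open with either agent.

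Col4a1 and Col4a2, which encode the chains of the ubiquitous collagen IV trimer, rose most among the collagen genes of at least 5 CPM. Col4a1 (chr8:11198423-11312826) stood at 502, 571, 467 and 622 CPM in the untreated ISO arm hearts and at 2376, 2585 and 2147 CPM on day 1. The day 1 values were all above the untreated ones, and the test passed (log2 2.13, SE 0.18, adjusted p = 6.64e-10). In the LPS arm it stood at 624, 538, 734 and 741 CPM untreated and 1940, 1962, 2014 and 1704 CPM on day 1 (log2 1.53, SE 0.17, adjusted p = 3.93e-08). Col4a2 also rose, with every day 1 heart above every untreated heart of its arm. It went from 471, 504, 444 and 555 CPM to 1979, 2101 and 1906 CPM after isoproterenol (log2 2.02, SE 0.14, adjusted p = 4.38e-11), and from 538, 483, 619 and 608 CPM to 1396, 1409, 1634 and 1486 CPM after lipopolysaccharide (log2 1.40, SE 0.13, adjusted p = 4.76e-09).

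The other collagen IV chains fell where Col4a1 and Col4a2 rose. Col4a3, Col4a4 and Col4a5 encode the trimer found in the glomerulus and other specialised basement membranes, and Col4a6 a chain that pairs with Col4a5. Col4a4 stood at 9.60, 9.89, 9.67 and 10.9 CPM at ISO baseline and 2.67, 2.49 and 3.25 CPM on day 1 (log2 -1.84, SE 0.22, adjusted p = 1.58e-07). In the LPS arm it went from 12, 9.29, 14.4 and 13.5 CPM to 2.57, 2.04, 4.26 and 3.04 CPM (log2 -2.03, SE 0.20, adjusted p = 4.76e-09). Its head-to-head neighbour Col4a3 was at 4.11, 4.85, 4.07 and 5.20 CPM before and 1.51, 1.63 and 2.37 CPM after isoproterenol, and at 4.53, 3.33, 5.41 and 5.81 CPM before and 1.19, 1.15, 2.69 and 2.09 CPM after lipopolysaccharide. The groups of Col4a3 did not overlap, with log2 changes of -1.31 (SE 0.28, adjusted p = 0.000307) and -1.41 (SE 0.26, adjusted p = 4.47e-05). An antisense transcript, C430014B12Rik, overlaps Col4a3 with 9.40% as many reads, and with no stated strand setting its reads cannot be told apart. Col4a5 fell least, from 31.8, 35.7, 36.2 and 34.2 CPM to 16.9, 21.4 and 17.7 CPM after isoproterenol (log2 -0.88, SE 0.17, adjusted p = 6.86e-05), and from 31.5, 38, 36.6 and 34.5 CPM to 21.1, 13.2, 29.3 and 26.7 CPM after lipopolysaccharide (log2 -0.63, SE 0.15, adjusted p = 0.000755). Col4a6 was lower with both agents at group means of at most 1.30 CPM.

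The chains of collagens I and III, the main fibril proteins of the heart, did not pass the test 1 day after isoproterenol and were lower 1 day after lipopolysaccharide. Col1a1 (chr11:94936224-94953042) stood at 143, 160, 127 and 168 CPM at ISO baseline and at 125, 140 and 142 CPM on day 1, and these ranges overlap (log2 -0.14, SE 0.41, adjusted p = 0.779). In the LPS arm it went from 136, 128, 194 and 189 CPM to 61.3, 45.6, 122 and 87.5 CPM (log2 -1.03, SE 0.38, adjusted p = 0.0215). The highest day 1 heart, replicate 3, lay close below the lowest untreated one. Its partner Col1a2 stood at 132, 140, 121 and 149 CPM before and 89.3, 107 and 112 CPM after isoproterenol (log2 -0.40, SE 0.33, adjusted p = 0.293), and at 127, 120, 175 and 168 CPM before and 64.0, 59.8, 104 and 79.8 CPM after lipopolysaccharide (log2 -0.94, SE 0.30, adjusted p = 0.00943). Col3a1 (chr1:45311538-45349706) showed no overlap after isoproterenol, 207, 256, 195 and 271 CPM against 127, 137 and 139 CPM, yet did not pass (log2 -0.79, SE 0.45, adjusted p = 0.128). After lipopolysaccharide it went from 214, 204, 339 and 325 CPM to 108, 79.3, 200 and 126 CPM (log2 -1.07, SE 0.41, adjusted p = 0.026). With ISO day 1 and ISO baseline fitted alone, Col3a1 and Col1a2 were called lower (adjusted p = 4.34e-05 and 0.00185), as were 5118 of 14593 genes. They also passed in the model without ISO day 7 replicate 3, an alternative added after seeing the data (adjusted p = 0.0154 and 0.0371). That model called 66.7% of all genes after isoproterenol. Col1a1 was called in neither fit. Without LPS baseline replicate 3 or 4 or LPS day 1 replicate 1 or 2, the LPS day 1 calls of Col1a1 (adjusted p = 0.0506 to 0.0729) and Col3a1 (adjusted p = 0.0616 to 0.0804) were lost.

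Collagen V, which nucleates fibrils and limits their diameter, split by chain and by agent. Col5a2 rose after isoproterenol, from 28.2, 29.9, 28.1 and 31.1 CPM to 65.1, 74.6 and 61.8 CPM, with every day 1 heart above every untreated heart (log2 1.20, SE 0.31, adjusted p = 0.00185). It was lower after lipopolysaccharide, 30.3, 28.2, 37.4 and 39.7 CPM against 16.8, 16.5, 25.9 and 21.2 CPM (log2 -0.75, SE 0.30, adjusted p = 0.032), a call lost without LPS baseline replicate 3 or 4 or LPS day 1 replicate 1 or 2 (adjusted p = 0.0685 to 0.0830). Col5a1, by contrast, was at 61.6, 66.1, 53.2 and 70.7 CPM before and 40.5, 47.3 and 51.6 CPM after isoproterenol (log2 -0.44, SE 0.31, adjusted p = 0.222). These groups did not overlap, and the gene was called lower with ISO day 1 and ISO baseline fitted alone (adjusted p = 0.00251). It was not called in the model without ISO day 7 replicate 3. After lipopolysaccharide it fell from 57.5, 57.3, 82.6 and 80 CPM to 15.1, 13.2, 32.2 and 26.3 CPM (log2 -1.67, SE 0.30, adjusted p = 3.27e-05). Col5a3 had the steepest fall of the fibrillar class after lipopolysaccharide, from 40.5, 36.5, 47.5 and 47.1 CPM to 6.29, 4.98, 15.8 and 10.0 CPM (log2 -2.20, SE 0.30, adjusted p = 7.75e-07). After isoproterenol its ranges overlapped, 32.8, 30.5, 25 and 35 CPM against 29.9, 32 and 23.8 CPM (log2 -0.11, SE 0.30, adjusted p = 0.765).

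Col27a1, a fibrillar collagen known from cartilage, was also called in opposite directions at low level. It stood at 3.52, 2.96, 2.56 and 3.34 CPM before and 4.74, 7.32 and 3.83 CPM after isoproterenol (log2 0.78, SE 0.22, adjusted p = 0.00325), a call lost without ISO day 1 replicate 2 (adjusted p = 0.0777). After lipopolysaccharide it fell from 3.33, 3.67, 4.30 and 4.63 CPM to 1.38, 1.84, 1.03 and 1.61 CPM (log2 -1.44, SE 0.23, adjusted p = 7.11e-06). Col11a2, the remaining fibrillar member tested, was not called with either agent at group means under 1 CPM.

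Collagen VI chains assemble as a trimer of the Col6a1, Col6a2 and Col6a3 products, in which the Col6a6 chain can stand in for that of Col6a3. Col6a6 had the steepest fall of all collagen genes of at least 5 CPM with both agents. It stood at 9.23, 12.6, 10.7 and 10.6 CPM at ISO baseline and at 0.431, 0.272 and 0.500 CPM on day 1 (log2 -4.76, SE 0.29, adjusted p = 3.13e-12). In the LPS arm it went from 8.07, 10.6, 12.4 and 13.2 CPM to 0.930, 0.996, 0.455 and 0.684 CPM (log2 -3.86, SE 0.23, adjusted p = 1.55e-12). All 7 treated hearts were below 1 CPM on day 1, and all 8 untreated ones were above 8 CPM. Col6a3, with the longest chain of the class, parted the agents. It was at 57.5, 67.6, 61.8 and 77.1 CPM before and 56.3, 62.5 and 55.8 CPM after isoproterenol (log2 -0.18, SE 0.26, adjusted p = 0.56), and fell from 68.4, 66.4, 81.9 and 85.5 CPM to 22.9, 13.3, 26 and 19.8 CPM after lipopolysaccharide (log2 -1.88, SE 0.25, adjusted p = 9.03e-07).

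Col6a1 and Col6a2, neighbours on chromosome 10, fell together. Col6a1 went from 108, 123, 96.4 and 120 CPM to 56, 57.9 and 58.9 CPM after isoproterenol (log2 -0.96, SE 0.21, adjusted p = 0.000425). After lipopolysaccharide it went from 98.5, 93.5, 128 and 123 CPM to 32.4, 29.7, 46.1 and 36.4 CPM (log2 -1.62, SE 0.20, adjusted p = 2.07e-07). Day 1 hearts were below all untreated hearts in both arms. Col6a2 went from 116, 121, 100 and 139 CPM to 68.3, 73.7 and 68.9 CPM (log2 -0.76, SE 0.20, adjusted p = 0.0025), and from 108, 110, 145 and 135 CPM to 35.2, 37.3, 47.6 and 37.9 CPM (log2 -1.66, SE 0.19, adjusted p = 8.52e-08).

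**Figure D3:**
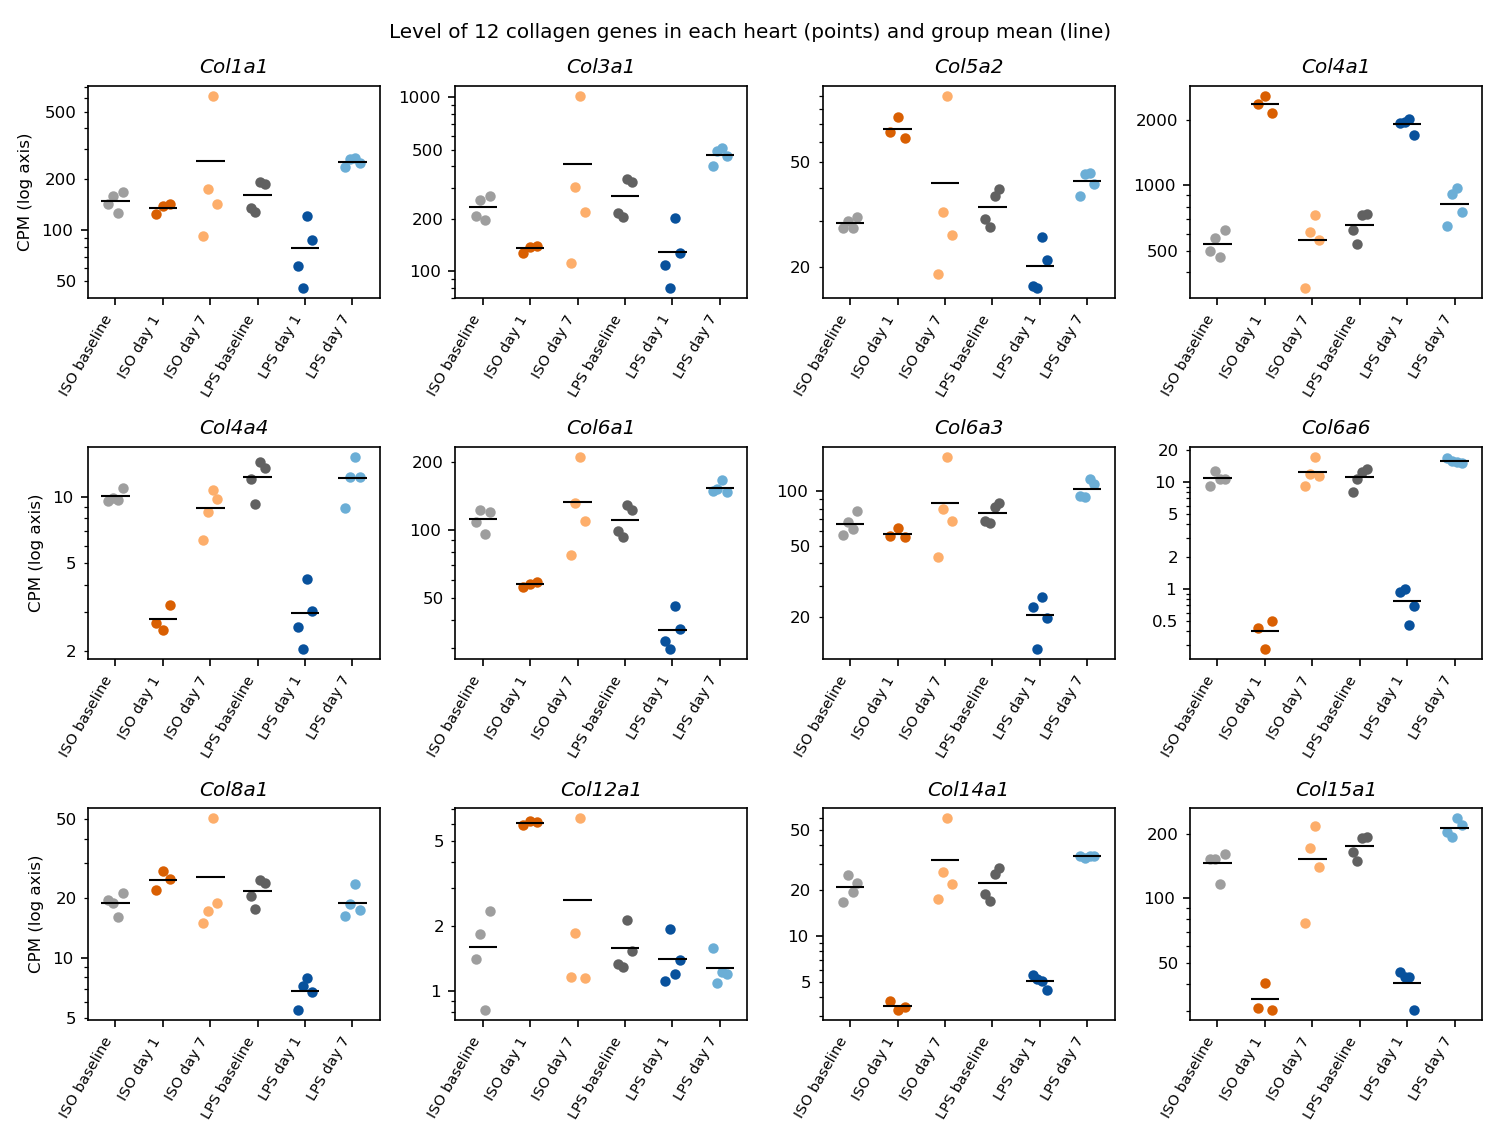
CPM (log axis) of 12 collagen genes in each heart (points) with the group mean (line), for the 6 groups on the horizontal axis. Col4a1 is high and Col4a4, Col6a6, Col14a1 and Col15a1 are low in all 7 day 1 hearts, Col5a2 and Col12a1 are high in the 3 ISO day 1 hearts, and 1 ISO day 7 heart is far above its group for Col1a1, Col3a1, Col8a1 and Col12a1.

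Among fibril-associated collagens, which decorate the surface of fibrils, Col12a1 and Col14a1 moved in opposite directions after isoproterenol. Col12a1 rose from 1.41, 1.84, 0.815 and 2.35 CPM to 5.91, 6.16 and 6.12 CPM (log2 1.92, SE 0.41, adjusted p = 0.000305). After lipopolysaccharide its ranges overlapped, 1.34, 1.30, 2.13 and 1.54 CPM against 1.12, 1.94, 1.20 and 1.40 CPM (log2 -0.17, SE 0.44, adjusted p = 0.744). Col14a1 fell with both agents, from 16.9, 25.1, 19.5 and 22.2 CPM to 3.75, 3.27 and 3.46 CPM (log2 -2.58, SE 0.33, adjusted p = 3.46e-07) and from 19.0, 17.1, 25.8 and 28 CPM to 5.58, 5.23, 5.09 and 4.45 CPM (log2 -2.14, SE 0.28, adjusted p = 4.98e-07). Col16a1 was lower after lipopolysaccharide, 8.22, 8.72, 12.8 and 11.9 CPM against 4.61, 4.78, 5.09 and 3.59 CPM (log2 -1.21, SE 0.31, adjusted p = 0.00145). After isoproterenol it was at 5.91, 5.48 and 5.87 CPM against 7.97, 10.8, 6.85 and 9.94 CPM and did not pass (log2 -0.62, SE 0.33, adjusted p = 0.1). It was called lower there with the same log2 change of -0.62 in the model without ISO day 7 replicate 3 (adjusted p = 0.00199) and with the compared groups alone (adjusted p = 0.00283), and also with no count filter (adjusted p = 0.0461) and pooled baselines (adjusted p = 0.0279).

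The multiplexins, basement membrane collagens that carry sugar side chains, also parted. Col15a1 fell from 153, 153, 117 and 161 CPM to 30.8, 40.4 and 30.1 CPM after isoproterenol (log2 -2.11, SE 0.23, adjusted p = 4.89e-08). After lipopolysaccharide it fell from 166, 150, 192 and 194 CPM to 45.3, 42.9, 42.8 and 30.1 CPM (log2 -2.12, SE 0.21, adjusted p = 6.6e-09). Col18a1, the source of endostatin, a fragment that restrains vessel growth, rose instead. It went from 20.02, 16.5, 14 and 19.1 CPM to 26.1, 26.2 and 23.3 CPM (log2 0.53, SE 0.19, adjusted p = 0.0196) and from 18.2, 14.7, 19.7 and 22.7 CPM to 32.4, 29, 31.9 and 29 CPM (log2 0.70, SE 0.18, adjusted p = 0.00162). The isoproterenol call of Col18a1 was lost without ISO baseline replicate 3 or ISO day 1 replicate 1 or 2 (adjusted p = 0.0540 to 0.0672). The antisense gene Slc19a1 overlaps Col18a1 with 19.0% as many reads, which cannot be told apart without a stated strand setting.

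Col8a1, a short-chain collagen of vessel walls, stood at 19.7, 18.9, 16.1 and 21.4 CPM before and 22, 27.6 and 25 CPM after isoproterenol (log2 0.39, SE 0.28, adjusted p = 0.221). These groups did not overlap, and the gene was called higher in the model without ISO day 7 replicate 3 (adjusted p = 0.0152) and with the compared groups alone (adjusted p = 0.00495). After lipopolysaccharide it fell from 20.6, 17.8, 24.9 and 24 CPM to 5.47, 7.22, 7.91 and 6.74 CPM (log2 -1.68, SE 0.28, adjusted p = 1.47e-05). Of the 10 tested members under 5 CPM, Col4a6, Col8a2 and Col26a1 were lower with both agents and the transmembrane collagens Col13a1 and Col23a1 were called lower after isoproterenol. Col28a1, a collagen known from peripheral nerve, was lower and Col22a1, known from muscle-tendon junctions, higher after lipopolysaccharide. Col11a2, Col20a1 and Col25a1 were called with neither. Some of these calls were lost under alternatives. For Col4a6 these were pooled baselines and leaving out ISO baseline replicate 3, ISO day 1 replicate 1 or 3, or LPS baseline replicate 2 (adjusted p = 0.0536 to 0.0880). For Col8a2 they were TPM and leaving out ISO baseline replicate 1, any ISO day 1 heart, or LPS day 1 replicate 1 or 2 (adjusted p = 0.0503 to 0.0591), for Col23a1 TPM (adjusted p = 0.0556) and for Col26a1 leaving out ISO day 1 replicate 2 (adjusted p = 0.0535). Col20a1 shares its strand with the transcript BX649560.1, which held 412% as many reads, so its values are uncertain.

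Whether the agents differed was tested as the difference between the LPS and ISO day 1 changes, each against its own baseline. Of 32 members, 10 had a lower and 2 a higher change after lipopolysaccharide, against 19.5% and 18.2% of all genes tested. Of the 22 members of at least 5 CPM, 9 passed, all with a lower change after lipopolysaccharide. They were Col27a1 (difference of log2 changes -2.23, SE 0.32, adjusted p = 6.76e-06), Col12a1 (-2.09, SE 0.60, adjusted p = 0.00821), Col5a3 (-2.09, SE 0.41, adjusted p = 0.000338), Col8a1 (-2.07, SE 0.39, adjusted p = 0.000217) and Col5a2 (-1.95, SE 0.43, adjusted p = 0.00103). Col6a3 (-1.70, SE 0.36, adjusted p = 0.000678), Col5a1 (-1.24, SE 0.42, adjusted p = 0.0243), Col6a2 (-0.90, SE 0.27, adjusted p = 0.0121) and Col4a2 (-0.62, SE 0.19, adjusted p = 0.0149) followed. The Col5a1 difference was lost without ISO day 1 replicate 3 or LPS day 1 replicate 1 (adjusted p = 0.0533 each). For collagens I and III the difference did not pass: -0.89 (SE 0.55) for Col1a1, -0.54 (SE 0.44) for Col1a2 and -0.29 (SE 0.60) for Col3a1, with adjusted p = 0.22, 0.36 and 0.745. The Col1a1 difference passed in the model without ISO day 7 replicate 3 (-0.89, SE 0.32, adjusted p = 0.029) and with the compared groups alone (adjusted p = 0.0372). In the model without that library 16 members differed, against 39.1% of all genes, namely the 12 and Col1a1, Col4a1 (adjusted p = 0.0347), Col6a1 (adjusted p = 0.0128) and Col16a1 (adjusted p = 0.0417). Under 5 CPM, Col28a1 (-2.47) was lower and Col22a1 (1.69) and Col13a1 (1.76) higher. The Col22a1 difference was lost on log2(TPM + 0.1) (1.09, adjusted p = 0.111) and with effective-length offsets (adjusted p = 0.158).

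**Figure D4:**
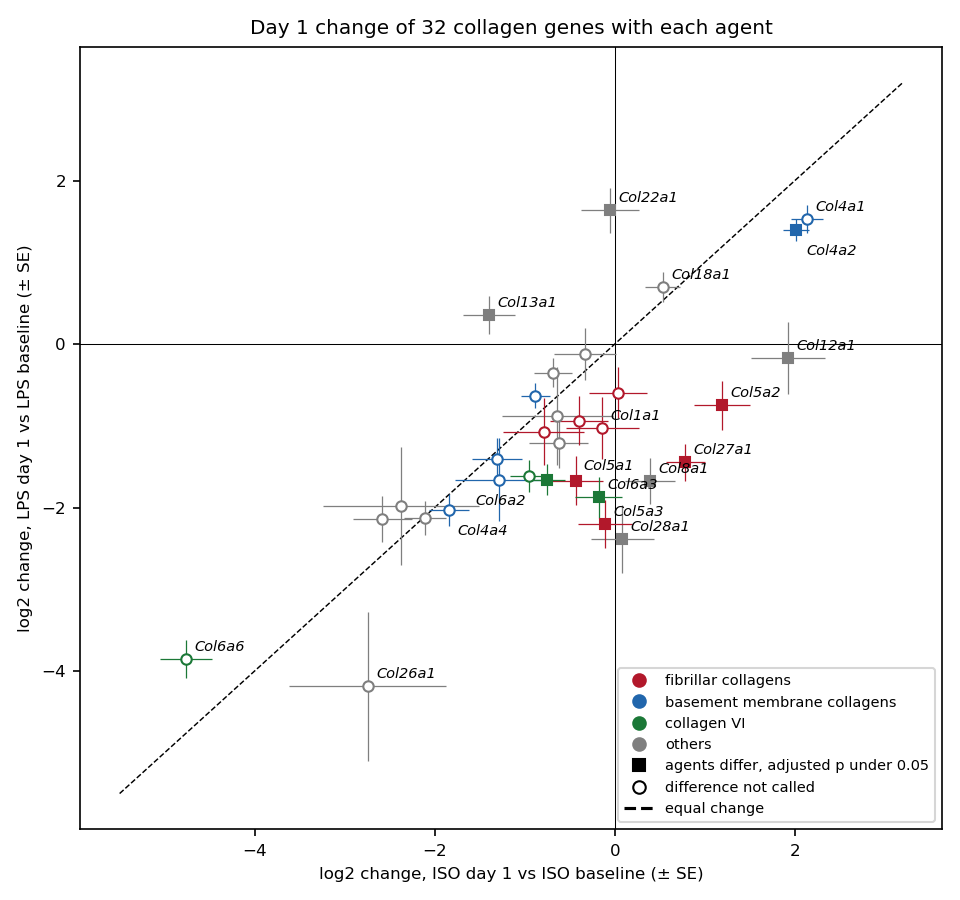
Log2 change on day 1 after isoproterenol (horizontal) and lipopolysaccharide (vertical), each against its own baseline ± SE, for 32 collagen genes coloured by class. Filled squares mark the 12 members whose changes differ at adjusted p under 0.05, open circles the others; the dashed line marks equal change, and 10 of the 12 squares lie below it.

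On day 7 no collagen gene was called with either agent. After isoproterenol 0 of 32 passed with edgeR and with DESeq2, against 0.00636% and 0.0127% of all genes tested, and 4 members had an unadjusted p under 0.05, against 5.49%. The median log2 change was 0.20. After lipopolysaccharide 0 of 32 passed with edgeR and 1 (Col18a1) with DESeq2, against 9.1% and 11.1% of all genes, and 7 members had an unadjusted p under 0.05, against 22.9%. The median there was 0.32, beside 0 over all genes. The difference between the agents on day 7 also called 0 of 32, against 0.458% of all genes, with 1 member at an unadjusted p under 0.05 (9.46%) and 0 by DESeq2 (0.897%).

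The ISO day 7 means rest on replicate 3. Col1a1 stood at 92.2, 175, 623 and 142 CPM in replicates 1 to 4, Col3a1 at 110, 303, 1024 and 218 CPM, and Col1a2 at 101, 152, 466 and 135 CPM. For each of these genes replicate 3 was more than 2-fold above the mean of the other 3 and replicate 1 was below every untreated heart. The log2 changes on day 7 were 0.79 for Col1a1 (SE 0.38, adjusted p = 0.901), 0.83 for Col3a1 (SE 0.41, adjusted p = 0.910) and 0.66 for Col1a2 (SE 0.30, adjusted p = 0.901). Without replicate 3 they were -0.13, -0.14 and -0.06. Over the family, replicate 3 was at least 2-fold above the mean of the other 3 in 12 of 32 members, against 3.89% of all genes, with a median of 3.06-fold over fibrillar members, 1.97-fold over collagen VI and 1.34-fold over collagen IV. Replicate 1 was the lowest of the 4 in 26 of 32, against 28.9% of all genes. In Col5a2 the hearts stood at 18.8, 32.3, 90.0 and 26.4 CPM, in Col12a1 at 1.17, 1.87, 6.401 and 1.16 CPM, in Col14a1 at 17.6, 26.6, 60.1 and 22 CPM and in Col6a3 at 43.4, 79.2, 155 and 68.1 CPM. Col4a5 did not share the pattern, at 31.1, 28.2, 30.004 and 34.8 CPM. Macrophage markers also summed to 268 CPM in replicate 3 against 122 to 142 CPM in the other 3, and activated fibroblast markers to 536 CPM against 159 to 193 CPM. General fibroblast markers were highest there in 6 of 8, with a median of 1.47-fold over the other 3. Their sum, most of it Gsn, was 1471 CPM against 1275 to 1536 CPM, and without Gsn it was 300.5 CPM against 137 to 176 CPM. The part of these cells in the result was not tested.

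**Figure D5:**
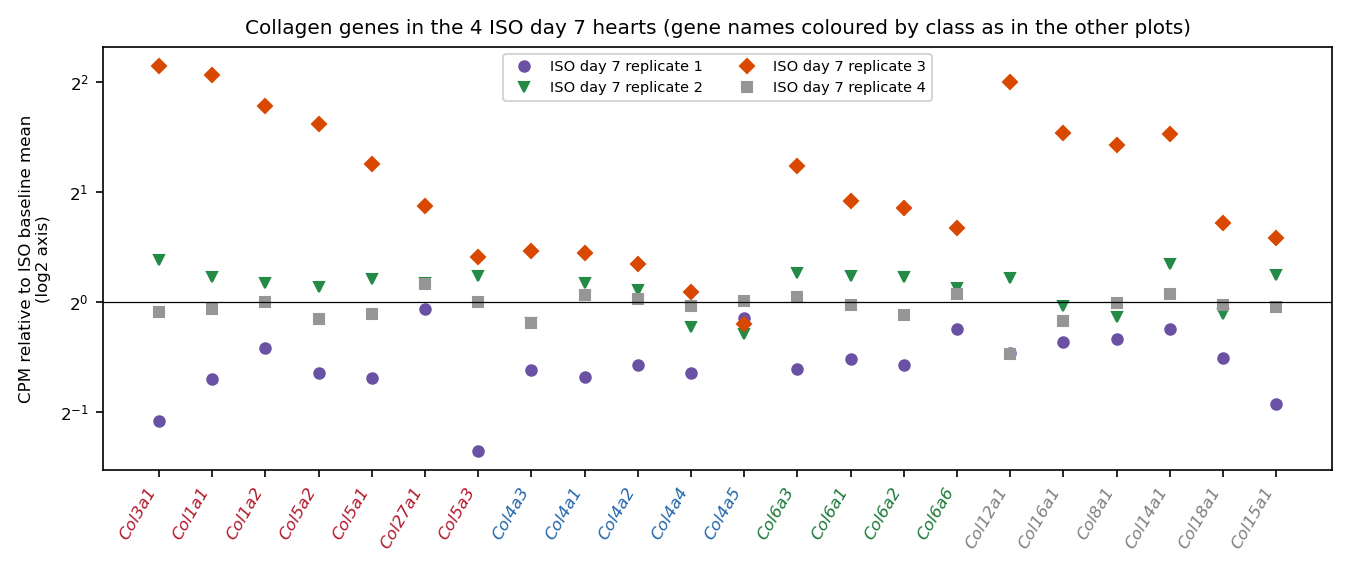
Level of the 22 collagen genes of at least 5 CPM in each of the 4 ISO day 7 hearts, as CPM relative to the ISO baseline mean (log2 axis, line at 1), ordered by class. Replicate 3 is above the line for all but Col4a5, farthest for Col3a1 and Col1a1 and next for Col12a1, and replicate 1 is below it throughout.

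The LPS day 7 hearts lay close together and mostly above their baseline for interstitial collagens, without passing the test across all 6 groups. Col3a1 stood at 404, 490, 509 and 458 CPM against 214, 204, 339 and 325 CPM (log2 0.78, SE 0.41, adjusted p = 0.263). Col1a1 stood at 237, 265, 268 and 250 CPM against 136, 128, 194 and 189 CPM (log2 0.66, SE 0.38, adjusted p = 0.313), and Col1a2 at 204, 213, 228 and 219 CPM against 127, 120, 175 and 168 CPM (log2 0.55, SE 0.30, adjusted p = 0.285). In these 3 genes every day 7 heart was above every untreated heart. The same held for Col14a1 (33.7, 32.6, 33.9 and 33.6 CPM; log2 0.58, SE 0.24, adjusted p = 0.154), Col6a6 (16.7, 15.5, 15.2 and 14.8 CPM; log2 0.50, SE 0.16, adjusted p = 0.0579) and Col5a1 (99.7, 98.9, 108 and 100 CPM; log2 0.55, SE 0.28, adjusted p = 0.248). Col18a1 came nearest to the threshold, at 22.2, 29.8, 32.5 and 26.2 CPM (log2 0.56, SE 0.18, adjusted p = 0.0541), with an overlap of ranges. In all, 11 of 32 members had no overlap and were higher, against 10.7% of all genes, and 0 were lower, against 10%. All 4 tested collagen VI genes were among the 11.

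How many passed on LPS day 7 depended on which libraries entered the model. With ISO day 7 replicate 3 left out, 7 members were higher and 0 lower, against 11.4% of all genes called: Col3a1 (adjusted p = 0.0453), Col1a2, Col6a1, Col6a2, Col6a6, Col14a1 and Col18a1. With the LPS day 7 and LPS baseline groups fitted alone, 14 were higher and 0 lower, against 18% of all genes. Those 14 held Col1a1 (adjusted p = 0.00268), Col3a1 (adjusted p = 0.00368) and Col1a2 (adjusted p = 0.00393). The log2 changes were nearly the same in these fits, 0.78 for Col3a1 in both. Scaling by library totals moved the median of all genes to 0.16 and TPM to 0.20 in this comparison, and Col3a1 to 0.93 and 0.94. Macrophage markers were higher in 6 of 6 on LPS day 7 with all hearts in the model, where 9.1% of all genes were called. They summed to 212 to 264 CPM against 123 to 145 CPM. Fibroblast markers summed to 1427 to 1549 CPM against 1402 to 1486 CPM, or without Gsn to 189 to 198 CPM against 154 to 186 CPM. The part of these cells was not tested.

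From day 1 to day 7 most members moved back towards untreated levels. In the LPS arm 24 of 32 were higher and 3 lower on day 7 than on day 1, against 33.9% and 32.5% of all genes, and all 8 tested fibrillar genes were among the higher. The call of the low-level Col11a2 was lost with no count filter, on log2(TPM + 0.1) and without LPS day 7 replicate 1 (adjusted p = 0.0636, 0.555 and 0.0560). Col6a6 was higher by 4.35 on the log2 scale (SE 0.23, adjusted p = 1.78e-13), Col14a1 by 2.72 (SE 0.28, adjusted p = 1.38e-08) and Col5a3 by 2.33 (SE 0.30, adjusted p = 3.80e-07). Col4a1 fell by 1.21 (SE 0.17, adjusted p = 1.27e-06) and Col4a2 fell by 1.18 (SE 0.13, adjusted p = 7.36e-08). In the ISO arm 16 were higher and 4 lower, against 33.2% and 31.9% of all genes. Without ISO day 7 replicate 3 these were 13 higher and 7 lower, against 64.6% of all genes called, and Col5a2, Col8a1 and Col27a1 joined the lower. Col3a1, Col5a1 and Col1a2, the only fibrillar genes among the higher, lost the call without it (adjusted p = 0.0563, 0.299 and 0.0957). With all hearts in the model, Col6a6 was higher by 4.96 (SE 0.29, adjusted p = 1.51e-12). Col4a1 fell by 2.08 (SE 0.18, adjusted p = 1.02e-09) and Col4a2 fell by 2.002 (SE 0.14, adjusted p = 5.05e-11). These comparisons share the day 1 hearts with those against baseline.

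Genes that serve collagens along their path were counted by lists. These counts are read against the 32.9% higher and 32.8% lower of all genes on ISO day 1 and 33.2% and 33% on LPS day 1, and several lists lie near those shares. Enzymes and chaperones that hydroxylate and fold the chains were mixed: 11 higher and 6 lower of 22 on ISO day 1, 5 and 10 of 22 on LPS day 1 (median log2 0.20 and -0.17). Serpinh1, the collagen-specific chaperone, was at 216 ± 17 CPM (SD, n = 4) before and 203 ± 40.7 (SD, n = 3) after isoproterenol (log2 -0.08, SE 0.11, adjusted p = 0.50) and fell by 1.03 on the log2 scale after lipopolysaccharide (SE 0.10, adjusted p = 4.3e-09). P4ha1, a subunit of prolyl hydroxylase, fell by 0.58 and by 1.07. Fkbp10, a chaperone whose loss gives brittle bone, rose by 1.27 and 1.25.

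Genes that trim and crosslink collagens included a steep rise. Lox, which crosslinks fibrils, rose from 2.92 ± 0.551 CPM (SD, n = 4) to 104 ± 8.70 (SD, n = 3) after isoproterenol (log2 5.14, SE 0.49, adjusted p = 4.3e-09) and by 4.15 after lipopolysaccharide (SE 0.46, adjusted p = 4.5e-08). Tgm2, a transglutaminase, rose by 1.98 and 1.88. The whole list had 5 higher and 3 lower, then 5 higher and 5 lower, of 14. Small proteoglycans and other fibril organizers mostly fell, 10 and 11 lower and 1 and 1 higher of 14. Ogn fell by 2.59 and 1.67. Lum fell by 2.09 after isoproterenol, and Dcn (decorin) rose by 0.80 after lipopolysaccharide.

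Laminins and other basement membrane partners were more often lower than higher on day 1. Of 12, 3 were higher and 8 lower after isoproterenol, and 2 higher and 8 lower after lipopolysaccharide. Lamb2, a laminin chain, fell by 0.99 and 1.28 on the log2 scale and Lama2 fell by 0.74 and 1.09. Collagen receptors had 4 higher and 6 lower, then 2 higher and 7 lower, of 12. Itgb1, the shared chain of collagen-binding integrins, rose by 0.81 and 0.70, and Antxr2 fell by 1.67 and 1.35. Among proteases of collagen and their inhibitors, 5 were higher and 5 lower, then 6 higher and 3 lower, of 12. Timp1, an inhibitor of matrix metalloproteinases, rose from 0.870 ± 0.108 CPM (SD, n = 4) to 35.8 ± 5.37 (SD, n = 3) after isoproterenol (log2 5.35, SE 0.39, adjusted p = 6.6e-11) and by 5.15 after lipopolysaccharide.

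Among genes of TGF-beta signalling, the best-known inducer of fibrillar collagens, 14 were higher and 4 lower of 20 after isoproterenol, and 9 higher and 5 lower after lipopolysaccharide. Tgfb1 rose by 0.83 on the log2 scale after isoproterenol (SE 0.13, adjusted p = 7.6e-06) and did not pass after lipopolysaccharide (log2 -0.11, SE 0.12, adjusted p = 0.46). Tgfb2 rose by 2.06 and 1.61, and the target gene Ccn2 by 2.57 and 2.28. Ccn2 spread widely between LPS day 1 hearts, at 275 ± 231 CPM (SD, n = 4), beside 390 ± 51.5 CPM (SD, n = 3) on ISO day 1. On ISO day 7, when 0.00636% of all genes were called, none of these 7 lists had a called gene with edgeR. On LPS day 7, when 9.1% of all genes were called, 2 of 12 basement membrane partners, 2 of 12 receptors, 2 of 12 proteases and inhibitors and 2 of 20 TGF-beta genes were higher, as were 1 of 14 trimming genes and 1 of 14 fibril organizers. Nid2, a basement membrane linker, was among them (log2 0.82, SE 0.15, adjusted p = 0.0019), as were the matrix protein Dpt (log2 0.41, adjusted p = 0.024) and Tgfb1 (log2 0.40, adjusted p = 0.040). The lower ones were 3 hydroxylation and folding genes and the protease inhibitor Timp4 (log2 -0.76, adjusted p = 0.0027).

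Markers of cell types also changed on day 1, in directions that differed between lists and agents. Counts of called markers, here and in the next paragraph, are read against the shares of all genes tested. Those were 32.9% higher and 32.8% lower on ISO day 1, and 33.2% and 33% on LPS day 1. Several of the counts lie near them. Fibroblast markers, 3 higher and 4 lower of 8 after isoproterenol and 0 higher and 5 lower after lipopolysaccharide, summed to 709 to 908 CPM against 1354 to 1434 CPM and to 785 to 842 CPM against 1402 to 1486 CPM. Most of this sum is the actin-severing protein Gsn, which fell from 1237 to 611 CPM and from 1278 to 707 CPM in group means. The other 7 genes, a sum chosen after seeing the values, held 158 to 174 CPM against 153 to 171 CPM after isoproterenol, which overlap, and 99.8 to 120 CPM against 154 to 186 CPM after lipopolysaccharide, which do not. Mfap5, a microfibril protein, rose by 1.75 on the log2 scale after isoproterenol. Pdgfra, a receptor that marks fibroblasts, rose by 0.58 after isoproterenol (SE 0.11, adjusted p = 0.00010) and was not called after lipopolysaccharide (log2 0.22, SE 0.11, adjusted p = 0.066), and the fibroblast factor Tcf21 fell by 0.50 and 0.64. Activated fibroblast markers, 3 higher and 2 lower of 7 and then 0 higher and 4 lower, summed to 430 to 714 CPM after isoproterenol against 170 to 235 CPM, and to 148 to 243 CPM after lipopolysaccharide against 164 to 233 CPM. Postn, a matrix protein of activated fibroblasts, rose by 1.72 after isoproterenol (SE 0.58, adjusted p = 0.013) and stood at -0.16 on the log2 scale after lipopolysaccharide (SE 0.56, adjusted p = 0.82). Acta2, shared with smooth muscle, rose by 1.59 and had a log2 change of 0.01.

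Pericyte and smooth muscle markers, 1 higher and 5 lower of 8 and then 0 higher and 7 lower, summed to 611 to 664 CPM after isoproterenol against 1040 to 1186 CPM, and to 524 to 589 CPM after lipopolysaccharide against 1184 to 1247 CPM. Endothelial markers, 4 higher and 1 lower of 8 and then 3 higher and 2 lower, summed to 1635 to 1775 CPM against 969 to 1051 CPM and to 1189 to 1484 CPM against 962 to 1073 CPM. The fatty acid carrier Fabp4 rose from 239 to 797 CPM and from 219 to 562 CPM in group means. Without it the other 7 held 887 to 967 CPM against 736 to 804 CPM after isoproterenol, and 708 to 779 CPM against 761 to 832 CPM after lipopolysaccharide. Vwf fell by 0.94 and Kdr by 0.36 on the log2 scale after lipopolysaccharide. Schwann cell markers were lower in 6 of 6 with both agents, at 5.51 to 6.29 CPM against 10.1 to 14.7 CPM and 2.57 to 5.26 CPM against 11.9 to 13.8 CPM. Macrophage markers, 1 higher and 3 lower of 6 with either agent, summed to 99.6 to 104 CPM against 134 to 148 CPM and to 34.7 to 45.3 CPM against 123 to 145 CPM. Neutrophil markers, 4 and 5 of 5 higher, summed to at most 10.2 CPM on day 1. Cardiomyocyte markers, the check of the tissue, were lower in 6 of 8 and then 7 of 8, with 0 higher. They summed to 51923 to 70555 CPM after isoproterenol against 73780 to 78836 CPM, and to 42523 to 51119 CPM after lipopolysaccharide against 67208 to 72788 CPM, with no overlap in either arm. Lep of the adipocyte list and Myh1, Myh4 and Matn1 of the skeletal muscle and cartilage list were under 0.1 CPM in group means. The part of these cell types in the collagen results was not tested.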

How the data were processed

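Poly-A RNA from 23 whole mouse hearts was sequenced, and per the submitters' processing notes bcl2fastq, DRAGEN, edgeR, limma and mm10 were used. Which versions, annotation release and strand setting applied is not given in the sources used here. The authors deposited estimated counts per gene for each library, not normalized, and TPM, which divides by effective length, per the file headers. Totals were 20910371 to 30368954 reads, so low genes carry most counting error. Of 55487 identifiers, 55227 were named from GENCODE M21.

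Estimated counts were rounded, filtered (filterByExpr, minimum count 10) and fitted with edgeR 4.0.16 (R 4.3.3): TMM scaling, 6 group means in 1 quasi-likelihood model, two-sided tests, Benjamini-Hochberg adjustment over 15732 genes, threshold 0.05. The common biological coefficient of variation was 11.0%. Groups were taken from the labels, whose replicates are read as separate mice; p-values measure the spread between these hearts. No batch is labelled. Alternatives used DESeq2 1.42.0, limma 3.58.1 on log2(TPM + 0.1), other scaling, filters and sample sets.

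The members and lists were chosen with earlier results of these data known. Members of at least 5 CPM in a group mean are described in full. From other lists, up to 4 genes per comparison with the smallest adjusted p and at least 5 CPM could be named, plus Serpinh1, P4ha1, Plod2, Lox, Tgfb1, Ccn2, Timp1, Pdgfra, Tcf21, Postn and Acta2.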

Additional observations from a re-analysis of the deposited data

Results flagged for a closer look

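In 8 of 110 groups of 4 hearts checked over the 22 collagen genes of at least 5 CPM, 1 heart lay far from the other 3 by Dixon's criterion, which chance meets in about 1 in 20 groups. Of these, 5 were ISO day 7 replicate 3, the highest heart for Col1a1 (623 CPM), Col1a2 (466 CPM), Col8a1 (51.01 CPM), Col16a1 (25.8 CPM) and Col12a1 (6.401 CPM). On LPS day 7 the highest hearts for Col5a1 (107.6 CPM) and Col6a2 (182 CPM) were flagged, and on LPS day 1 the lowest for Col15a1 (30.1 CPM).

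The day 1 change differed between the agents, by the test of the difference itself, in 12 members. It was lower after lipopolysaccharide for Col28a1 (-2.47 on the log2 scale), Col27a1 (-2.23), Col12a1 (-2.09), Col5a3 (-2.09), Col8a1 (-2.07), Col5a2 (-1.95), Col6a3 (-1.70), Col5a1 (-1.24), Col6a2 (-0.90) and Col4a2 (-0.62). It was higher for Col22a1 (1.69) and Col13a1 (1.76). Col5a2 and Col27a1 were called in opposite directions by the separate comparisons, and Col4a2 was called higher with both agents.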

How the results depend on the processing

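Of 50 values followed for single genes, 44 were called, and 0 of these changed direction under the alternatives run, while 6 lost the call under at least 1. Col1a1, Col3a1 and Col5a2 on LPS day 1 were lost without single LPS baseline or LPS day 1 hearts, Col3a1 and Col5a2 also with robust fitting (added after seeing the data; adjusted p = 0.0514 and 0.0586). Col27a1 on ISO day 1 was lost on log2(TPM + 0.1), with effective-length offsets and without 1 heart, Col18a1 on ISO day 1 with library totals and without single hearts, and the Col5a1 difference between agents with library totals, on TPM and without single hearts. The causes were not tested. Across all alternatives the counts of called members were 15 to 23 on ISO day 1 (19 as reported), 21 to 28 on LPS day 1 (26), 15 to 23 for ISO day 7 against day 1 (20), 21 to 29 for LPS day 7 against day 1 (27) and 9 to 16 for the difference on day 1 (12). On ISO day 7 the count was 0 throughout. The uncalled ISO day 7 changes of Col1a1, Col3a1 and Col1a2 turned to -0.13, -0.14 and -0.062 without replicate 3; leaving out hearts singly they reached 1.07, 1.15 and 0.89 without replicate 1.

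The LPS day 7 count, 0 as reported, was 3 with library totals, 3 with no count filter, 14 with the compared groups alone, 6 with pooled baselines, 2 on log2(TPM + 0.1) with limma, 1 with DESeq2, 7 in the model without ISO day 7 replicate 3 (added after seeing the data) and 0 to 2 leaving out hearts singly. Over all genes, 938 were higher and 493 lower there, but 2421 and 90 with library totals and 2035 and 44 on TPM. The day 7 difference between agents gave 0 to 1 leaving out hearts singly (1, Col18a1, without ISO day 7 replicate 3), and the untreated groups alone gave 1 (Col5a3). With a replicate block the counts were 19 on ISO day 1, 26 on LPS day 1 and 0 on LPS day 7. They were 19 and 27 for day 7 against day 1, and 13 for the difference on day 1. Same-numbered hearts did not deviate together over all genes (correlations from -0.118 to 0.082 over 22 pairs). This check cannot show what the replicate numbers stand for. Depth limits the 12 untested members, at most 0.561 CPM.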

Other observations

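The proportions of partner chains, as ratios of TPM within a heart, moved more in some pairs than in others. The ratio of Col4a1 to Col4a2 was 1.70 ± 0.114 (SD, n = 4) in untreated ISO arm hearts and 1.71 ± 0.0479 (SD, n = 3) on ISO day 1, and 1.72 ± 0.0800, 1.90 ± 0.196 and 1.88 ± 0.0977 (SD, n = 4 each) in the LPS arm untreated, on day 1 and on day 7. The ratio of Col5a2 to Col5a1 was 0.448 ± 0.0239 at ISO baseline and 1.56 ± 0.296 on ISO day 1, and 0.516 ± 0.0227 and 1.08 ± 0.330 (SD, n = 4 each) in the LPS arm, with no overlap in either arm. Col6a3 stood at 0.272 ± 0.0284 of Col6a1 at ISO baseline and 0.519 ± 0.0431 on ISO day 1, but at 0.325 ± 0.0193 and 0.269 ± 0.0589 in the LPS arm. Col12a1 stood at 0.0503 ± 0.0230 of Col14a1 at ISO baseline and 1.43 ± 0.496 on ISO day 1, so that every ISO day 1 heart held more Col12a1 than Col14a1 per length. On LPS day 1 that ratio was 0.205 ± 0.110, against 0.0317 ± 0.00944 at LPS baseline. These ratios were given as descriptions, with no test.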
